A study of Homo sapiens with 54 samples.

Results

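The genes for 5 dopamine receptors (DRD1, DRD2, DRD3, DRD4 and DRD5) and 3 adenosine receptors (ADORA1, ADORA2A and ADORA2B) were followed through every library of the series. They were taken by gene name, whatever their level, and all 8 were found among the 60676 genes that each of 53 libraries lists. The cells were hMSN-like cells, neurons with features of striatal medium spiny neurons (MSNs), derived from H9 (WA09) human embryonic stem cells, an established line. RNA-seq asked how such cells answer dopamine and dopamine receptor agonists. The 53 libraries form 18 groups of 3, except for 1 group of 2.

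In the dopamine experiments the cells received 1 mM or 1 µM dopamine for 1 h, either a single time (Acute) or daily over 5 days (Chronic), and RNA was collected at 1 h or at 24 h after dosing. Each dose had its own set of 3 PBS libraries, and each dose was a separate experiment, so that dose and experiment cannot be told apart. The study dissolved dopamine in ascorbic acid and names PBS as the control here, so effects against PBS may include those of ascorbic acid. Acute and Chronic cultures were collected at different ages, and the labels give the PBS libraries no culture day. For Acute against Chronic the age of the culture and the treatment therefore cannot be told apart. The same may hold for either of them against PBS. In the time course the cells received 1 mM dopamine daily for 2, 3, 4 or 5 days (Day 2 to Day 5), against ascorbic acid (AA), the vehicle in which dopamine was dissolved. Day 5 holds 2 libraries, replicates 2 and 3. In the agonist experiment the cells received 50 µM SKF82958, an agonist of D1-like receptors, or 50 µM quinpirole, an agonist of D2-like receptors, against water. All libraries came from a single line, and the labels do not say whether replicates were separate differentiations, so p-values measure the spread between these libraries, which may be technical.

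Dopamine receptors fall into a D1-like pair, DRD1 and DRD5, which couple to stimulatory G proteins and raise cAMP, and a D2-like trio, DRD2, DRD3 and DRD4, which couple to inhibitory G proteins and lower it. Adenosine receptors mirror this scheme: ADORA1 is inhibitory, whereas ADORA2A and ADORA2B are stimulatory. In the striatum DRD1 marks MSNs of the direct pathway, while DRD2 and ADORA2A mark those of the indirect pathway, where both receptors act on the same cyclase from opposite sides.

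Markers of the labelled cell type were present. PPP1R1B, which encodes the MSN signalling protein DARPP-32, had a mean of 22.2 ± 2.15 TPM in the 1 mM PBS set and 9.08 ± 1.25 TPM in the 1 µM PBS set (SD, n = 3), where TPM is a level corrected for gene length and for library size. BCL11B, an MSN transcription factor, stood at 46.9 ± 5.45 and 37.2 ± 8.42 TPM (SD, n = 3). The direct-pathway peptide gene PDYN was low or absent, with 0.787 ± 0.441 TPM in the 1 mM PBS set and 0 in every library of the 1 µM PBS set. The summed level of 5 direct-pathway markers (TAC1, PDYN, ISL1, EBF1 and CHRM4) was 21.2 to 24.7 TPM in 1 mM PBS. In 1 µM PBS this sum was 7.41 to 10.8 TPM. The cultures were mixed. The summed level of 6 progenitor markers was 1382 to 4325 TPM over the 12 control libraries and that of 6 neuron markers 1885 to 3571 TPM, so in these bulk samples fewer cells of a type and less RNA per cell cannot be told apart.

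Exon reads per library, the counts behind every test, numbered 5755919 to 27702963 in 52 libraries, and the share of reads in introns was 12.3% to 31.2%. Quinpirole replicate 1 stood apart, with 137051 exon reads and 96.7% of its reads in introns, and quinpirole results are given with and without it. At 1 mM, Acute 24 h replicate 1 differed from the other libraries of its group, with a chi-square per degree of freedom of 143.0 and 136.3 against them (5.48 between them) and 0.826% of its exon reads mitochondrial (2.49% and 2.58% in them). It held the highest DRD1, DRD2, ADORA2A and ADORA2B levels of the group, and without it 5 receptor tests at 1 mM passed in place of 1. In the 1 µM experiment, PBS replicate 2 had the fewest protein-coding genes detected of these 52 libraries, 13807 against up to 17458. Replicate 2 of PBS, Acute 1 h and Chronic 1 h at 1 µM had 12.4%, 12.6% and 12.8% of exon reads mitochondrial. The other libraries of these groups had 4.25% to 7.50%. No 2 libraries of a group were copies: the lowest chi-square per degree of freedom among 52 within-group pairs was 2.39.

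The 8 genes differ widely in how much of each is read, which sets how firmly each can be described. Over the 53 libraries ADORA1 (ENSG00000163485) gave 24188 exon reads, DRD4 (ENSG00000069696) 3203, DRD2 (ENSG00000149295) 3029 and ADORA2A (ENSG00000128271) 2418. DRD1 (ENSG00000184845) gave 1249, ADORA2B (ENSG00000170425) 1239, DRD3 (ENSG00000151577) 607 and DRD5 (ENSG00000169676) 262. The median library therefore held 510 exon reads of ADORA1 but 9 of DRD3 and 4 of DRD5, and DRD5 stood at 3 reads or fewer in 23 libraries. On GRCh38 the genes lie at chr5:175440036-175444182 (DRD1, minus strand), chr11:113409605-113475691 (DRD2, minus), chr3:114127580-114199407 (DRD3, minus) and chr11:637269-640706 (DRD4, plus). The others lie at chr4:9781634-9784009 (DRD5, plus), chr1:203090654-203167405 (ADORA1, plus), chr22:24417879-24442357 (ADORA2A, plus) and chr17:15944917-15975746 (ADORA2B, plus).

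Gene structure also differs. DRD5 has 1 exon and no intron reads, and DRD1 gave 4 intron reads in all. Intron reads made up 18.2% of the gene's reads for ADORA1, 31.5% for DRD2, 49.6% for ADORA2B, 50.5% for DRD4, 58.2% for ADORA2A and 72.6% for DRD3. ADORA2A is the least certain of the 8: it shares exons with the readthrough gene SPECC1L-ADORA2A, and only 10.1% of its exon reads were counted as unique to it. It also lies across the antisense gene ADORA2A-AS1, which gave 592 exon reads. Whether the counting used strand is not given in the sources used here, so reads of opposite-strand neighbours cannot be told apart, and this also touches DRD5, which lies opposite SLC2A9 (91 exon and 3496 intron reads).

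Promoters are shown for 3 genes on which the intron results below turn, ADORA1, DRD3 and ADORA2B. Each is 300 bases, from 250 before to 50 after the RefSeq start (GRCh38.p14), printed 5′ to 3′ on the strand of the gene, and capitals mark the GC box GGGCGG and the TGACG core of the cAMP response element, searched on both strands.
ADORA1, chr1:203127476-203127775, plus strand: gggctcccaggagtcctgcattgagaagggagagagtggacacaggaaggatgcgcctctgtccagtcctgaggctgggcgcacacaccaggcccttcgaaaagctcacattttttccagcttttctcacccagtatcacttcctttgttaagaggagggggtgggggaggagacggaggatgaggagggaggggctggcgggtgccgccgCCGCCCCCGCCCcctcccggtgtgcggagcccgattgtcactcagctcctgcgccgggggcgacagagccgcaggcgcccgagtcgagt
DRD3, chr3:114179003-114179302, minus strand: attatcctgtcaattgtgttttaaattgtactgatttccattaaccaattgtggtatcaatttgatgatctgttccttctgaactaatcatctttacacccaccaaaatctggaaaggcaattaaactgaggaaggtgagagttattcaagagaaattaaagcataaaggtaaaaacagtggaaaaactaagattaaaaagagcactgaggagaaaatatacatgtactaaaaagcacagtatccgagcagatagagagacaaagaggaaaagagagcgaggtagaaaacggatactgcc
ADORA2B, chr17:15944880-15945179, plus strand: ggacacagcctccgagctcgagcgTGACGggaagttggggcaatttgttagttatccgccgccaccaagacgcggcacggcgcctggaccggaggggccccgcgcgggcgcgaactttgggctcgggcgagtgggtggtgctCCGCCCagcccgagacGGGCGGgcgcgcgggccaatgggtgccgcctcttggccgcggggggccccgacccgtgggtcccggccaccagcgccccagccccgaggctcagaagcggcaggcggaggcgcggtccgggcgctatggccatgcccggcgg
The 3 windows printed differ in composition. GC content was 65.0% for ADORA1, 35.0% for DRD3 and 75.7% for ADORA2B, against a median of 58.7% over 35116 promoters. RefSeq has a second DRD3 window, at chr3:114178727-114179026, with a GC content of 45.3%. ADORA1 and ADORA2B each held 2 GC boxes, a motif found in 44.95% of all promoters, and neither DRD3 window held one. The TGACG core occurred in ADORA2B and in none of the ADORA1 and DRD3 windows, and 24.6% of all promoters hold it. These are letters in a window, not binding sites. The ADORA1 and DRD3 windows lie inside the gene spans of the files, whose annotated starts are further upstream. RefSeq windows were matched for 6 of the 8 genes, and DRD2 and ADORA2A had none.

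In control cells ADORA1 was the highest of the 8 genes in all 4 control sets, and DRD4 was the highest dopamine receptor gene. In the 1 mM PBS set the levels were 33.8 ± 1.22 TPM for ADORA1 and 11.9 ± 2.09 TPM for DRD4. ADORA2A (5.32 ± 0.461 TPM), ADORA2B (4.59 ± 0.274 TPM) and DRD2 (2.97 ± 0.641 TPM) followed. DRD1 (1.61 ± 0.895 TPM), DRD5 (1.05 ± 0.569 TPM) and DRD3 (0.979 ± 0.237 TPM) closed the order (SD, n = 3 throughout). Here the ranges of ADORA2A and ADORA2B overlapped, as did those of DRD1 and DRD5 and of DRD5 and DRD3, and the other neighbours were separate.

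The order below DRD4 changed between control sets. In AA it was DRD2 (5.43 ± 0.721 TPM), ADORA2B (4.39 ± 1.74 TPM), ADORA2A (2.599 ± 1.75 TPM), DRD3 (1.08 ± 0.312 TPM), DRD1 (0.871 ± 0.524 TPM) and DRD5 (0.235 ± 0.202 TPM), and all neighbours among these 6 overlapped. In water DRD2 (8.69 ± 1.01 TPM) and DRD3 (3.64 ± 1.14 TPM) were at their highest of the 4 sets. In the 1 µM PBS set every pair of neighbours overlapped, down to DRD5 with 4, 0 and 0 exon reads. There ADORA1 stood at 23.3, 9.53 and 22.1 TPM and DRD4 at 18.3, 1.77 and 16.4 TPM. Replicate 2 was the low library for both genes.

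**Figure D1:**
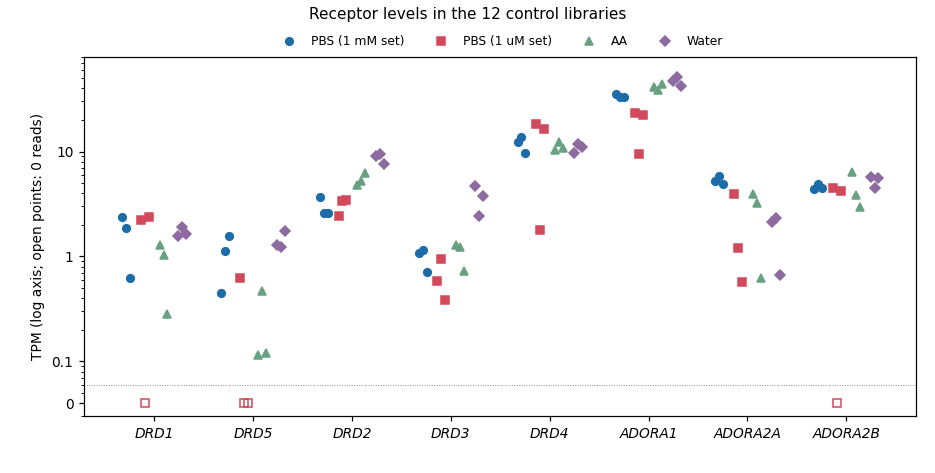
Level of each receptor gene in the 12 control libraries, in TPM on a log axis, with 1 point per library, the control sets told apart by colour and open points for libraries with 0 reads. ADORA1 lies highest in every set, at 9.53 to 51.1 TPM, and DRD5 and DRD3 lie lowest in the 1 mM PBS set.

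D2-like genes made up most of the dopamine receptor message. Their share of the summed TPM of DRD1 to DRD5 had a median of 88.4% over 52 libraries (60.5% to 100.0%, the highest in 1 µM PBS replicate 2, which had no DRD1 or DRD5 read). DRD4 alone held a median of 61.9% (29.0% to 80.1%). The D2-like share was lowest in the 1 µM Acute 1 h libraries, at 60.5% to 76.0%, against 88.3% to 100.0% in their PBS set. Among the adenosine receptors, ADORA1 held a median of 81.5% of the summed TPM (62.0% to 92.7%).

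Baseline levels of several receptor genes differed between control sets. In the 6 pairwise comparisons of control sets, 13 of 48 tests passed, meaning an adjusted p under 0.05 in edgeR's quasi-likelihood test on exon reads with Benjamini-Hochberg adjustment over all genes tested. The share of all genes that passed was 31.3% for 1 mM PBS against 1 µM PBS, 29.3% against AA and 39.1% against water. It was 46.1% for 1 µM PBS against AA, 55.1% against water, and 15.9% for AA against water.
ADORA1 differed in 5 of the 6 pairs and was lowest in the 1 µM PBS set, with a log2 difference to water of -1.36 (adjusted p = 3.03e-05 in edgeR) and to AA of -1.14 (adjusted p = 0.000213 in edgeR). DRD2 was lower in both PBS sets than in AA and in water, by up to -1.84 in log2 (1 mM PBS against water, adjusted p = 0.000128 in edgeR). The DRD2 call for 1 µM PBS against AA (-0.70, adjusted p = 0.0457 in edgeR) was lost without any 1 of 10 of the 12 libraries, all but 1 mM PBS replicate 1 and 1 µM PBS replicate 2, at log2 differences of -0.96 to -0.50 over all 12. DRD3 was higher in water than in the other 3 sets, with log2 differences of -2.17, -2.39 and -1.79 and adjusted p = 0.00194, 0.00113 and 0.0157 in edgeR. DRD4 passed in no pair, with log2 differences between -0.26 and -0.02. Vehicle, culture age and experiment differ together between these sets and cannot be told apart. Without 1 µM PBS replicate 2 the number of passes rose to 22, 3 of them for DRD4.

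Against these baselines, treatment moved the exon reads of few receptor genes. In 16 comparisons of treatments, 3 of 114 tests of the 8 genes passed and 15 had an unadjusted p under 0.05. The genes that passed were ADORA2B (1 mM Acute 24 h), DRD4 (Day 3) and ADORA1 (Day 4). The median size of the log2 fold changes was 0.31.
At 1 mM, 0 of 8 genes passed in Acute 1 h, where 16.0% of all 17804 genes tested did, with 1 receptor gene (and 30.9% of all genes) at an unadjusted p under 0.05. In Acute 24 h 1 of 8 passed, where 15.5% of all genes did. In Chronic 1 h 0 of 8 passed (2.08% of all genes, with 3 receptor genes and 16.4% of all genes at an unadjusted p under 0.05), and in Chronic 24 h 0 of 8 (0.663% of all genes, with 1 receptor gene and 10.8% of all genes unadjusted). In Chronic 1 h against Acute 1 h 0 of 8 passed (11.3% of all genes, with 3 receptor genes and 26.5% of all genes unadjusted). DESeq2 called 2 genes at 1 mM, ADORA2B and DRD2, both in Acute 24 h, where it called 22.8% of all genes.
At 1 µM DRD3 and DRD5 were below the minimum count, and of the other 6 genes 0 passed in edgeR in any comparison, with 1 test at an unadjusted p under 0.05 (20.3% of all genes) and 1 call by DESeq2 (10.7%), both for DRD1 in Acute 1 h. Of all genes, 5.77% passed in Acute 1 h, 3.31% in Acute 24 h, 2.58% in Chronic 1 h, 0.0% in Chronic 24 h and 1.2% in Chronic 1 h against Acute 1 h.
At 1 mM the 8 genes had median log2 fold changes of 0.05 at 1 h and 0.10 at 24 h after a single dose, where all genes had 0.01 and 0.02. After repeated doses they had 0.08 at 1 h and -0.35 at 24 h, where all genes had 0.00 and 0.01.

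Of the D1-like genes, DRD1 was the one with the widest shift, and it was at 1 µM. In the PBS set it stood at 2.22, 0 and 2.40 TPM (24, 0 and 24 exon reads), in Acute 1 h at 5.05, 4.09 and 6.08 TPM (32, 41 and 54 exon reads) and in Acute 24 h at 2.50, 4.03 and 2.30 TPM. In Chronic 1 h it stood at 2.77, 1.62 and 4.69 TPM and in Chronic 24 h at 2.25, 2.64 and 2.18 TPM. All 3 Acute 1 h libraries lay above all 3 PBS libraries, and of the Chronic 1 h libraries 2 lay above PBS and 1 within its range. In Acute 1 h the log2 fold change was 1.86 with an SE of 0.70 and did not pass in edgeR (adjusted p = 0.146). DESeq2 called it (log2 fold change 1.86, adjusted p = 0.0302). Without PBS replicate 2, the library with no DRD1 read, the fold change was 1.28 in edgeR and 1.29 in DESeq2 (adjusted p = 0.0296). At 1 mM the same comparison gave 0.21, from 2.08, 1.27 and 1.96 TPM against 2.35, 1.87 and 0.619 TPM in PBS, and these groups overlapped. In 1 mM Acute 24 h replicate 1 stood apart at 5.16 TPM, against 0.786 and 0.887 TPM in the others.

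DRD5, the other stimulatory dopamine receptor, was close to the limit of detection. At 1 mM its exon reads were 4, 11 and 15 in PBS, 9, 10 and 7 in Acute 1 h, 3, 8 and 9 in Acute 24 h and 3, 3 and 6 in Chronic 1 h. The lowest values were those of Chronic 1 h, whose log2 fold change against PBS was -1.34 with an SE of 0.48 (adjusted p = 0.177 in edgeR). Against Acute 1 h it was -1.35 with an SE of 0.49 (adjusted p = 0.0937 in edgeR). In the fit of all gene reads, where DRD5 has the same reads and the scaling between libraries differs, this second value was -1.67 and passed (adjusted p = 0.0196 in edgeR, where 40.1% of all genes did). In the 1 µM experiment and the time course DRD5 gave at most 7 exon reads in a library and was not tested, so a change there was not detectable at this depth. After SKF82958 it gave 5, 14 and 16 reads, against 11, 9 and 12 in water.

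Among the D2-like genes, DRD2 had a higher mean at 24 h after a single 1 mM dose, without passing. It stood at 3.71, 2.597 and 2.605 TPM in PBS, 3.64, 3.08 and 3.29 TPM in Acute 1 h and 6.60, 3.80 and 4.92 TPM in Acute 24 h. Every Acute 24 h library lay above every PBS library. The log2 fold change was 0.64 with an SE of 0.22 (adjusted p = 0.0596 in edgeR), DESeq2 called it (adjusted p = 0.0387), and in edgeR it passed without Acute 24 h replicate 2, at 0.76 (adjusted p = 0.0373). Chronic libraries lay at 4.12, 3.53 and 4.25 TPM at 1 h and 4.03, 3.05 and 4.78 TPM at 24 h, with log2 fold changes of 0.38 and 0.39. In the time course DRD2 stood at 4.80, 5.26 and 6.22 TPM in AA and at 2.37 to 5.72 TPM over Day 2 to Day 5, with log2 fold changes of -0.53 to -0.11 and no pass.

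DRD3, a receptor best known from the ventral striatum, gave few exon reads, and its exon level did not pass in any treatment. At 1 mM it stood at 1.08, 1.15 and 0.707 TPM in PBS (13, 15 and 9 reads) and 0.560, 0.0952 and 0.889 TPM in Acute 1 h (7, 1 and 10 reads). These groups overlapped, and the log2 fold change was -0.83 with an SE of 0.51 (adjusted p = 0.295 in edgeR). Counting all reads in the gene, most of which are in its introns, gave -1.61 in Acute 1 h (adjusted p = 0.00103, with 47.2% of all genes passing) and -1.17 in Acute 24 h (adjusted p = 0.00615, with 43.8%), both in edgeR. Chronic 1 h against Acute 1 h gave 1.37 (adjusted p = 0.00339 in edgeR, with 40.1%). These passes are taken up with the intron reads below. In water it stood at 4.72, 2.45 and 3.74 TPM, above every library of the other 3 control sets.

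DRD4, the most abundant dopamine receptor message, rose on Day 3 of the time course. It stood at 10.2, 12.2 and 10.7 TPM in AA (56, 66 and 56 exon reads) and 14.2, 20.4 and 22.2 TPM on Day 3 (72, 100 and 103 reads). Every Day 3 library lay above every AA library. The levels on Day 2 (12.3, 11.6 and 5.70 TPM), Day 4 (10.1, 11.6 and 13.3 TPM) and Day 5 (11.5 and 13.6 TPM) overlapped with AA. The Day 3 log2 fold change was 0.87 with an SE of 0.25 (adjusted p = 0.0433 in edgeR, 1 of 7 genes tested passing against 7.37% of all genes). The call was lost without any 1 of 8 libraries (Day 3 replicates 2 and 3, each Day 4 library and each AA library), with log2 fold changes of 0.73 to 1.06 over all libraries left out in turn. Counting all reads in the gene gave 0.70 (adjusted p = 0.0654 in edgeR). At 1 mM DRD4 ran from 9.64 to 13.8 TPM in PBS and 12.9 to 17.7 TPM in Acute 1 h, with a log2 fold change of 0.46 and an SE of 0.27 (adjusted p = 0.266 in edgeR).

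ADORA1, which lowers cAMP and dampens transmitter release, was the most deeply read of the 8 genes and fell on Day 4. It stood at 41.2, 38.9 and 44.0 TPM in AA. Day 2 gave 30.9, 28.9 and 31.2 TPM, Day 3 41.9, 41.7 and 40.2 TPM, Day 4 30.1, 35.0 and 28.9 TPM and Day 5 26.7 and 29.0 TPM. Day 2, Day 4 and Day 5 lay wholly below AA, and Day 3 lay within it. The log2 fold changes were -0.32 on Day 2 (SE 0.10, adjusted p = 0.0761), 0.09 on Day 3, -0.38 on Day 4 (SE 0.10, adjusted p = 0.0391) and -0.44 on Day 5 (SE 0.11, adjusted p = 0.0588), all in edgeR. On Day 4 1 of 7 genes passed against 4.38% of all genes, and on Day 2 and Day 5 0 of 7 passed in edgeR (3.88% and 1.63% of all genes), with 1 receptor gene each at an unadjusted p under 0.05 (20.3% and 15.6% of all genes). DESeq2 called ADORA1 on Day 2, Day 4 and Day 5 and DRD4 on Day 3, where it called 5.38%, 5.99%, 2.52% and 8.57% of all genes. The Day 4 call was lost without Day 2 replicate 1, Day 4 replicates 1 or 3, or AA replicates 1 or 3, at -0.47 to -0.30 over all libraries left out in turn, and with all reads in the gene counted (-0.29, adjusted p = 0.0988 in edgeR).
Markers of mesenchymal cells moved in the same libraries. Of 5 markers, 3 rose on Day 3 (7.37% of all genes passed) and 2 on Day 4 (4.38%). Their summed level was 166.9 to 223.4 TPM in AA and 213.6 to 443.5 TPM over Day 2 to Day 5. The summed level of 8 MSN markers was 136.4 to 146.9 TPM in AA and lay wholly below this on each day. It was 90.96 to 112.3 TPM on Day 2 and 111.8 to 127.2 TPM on Day 3. On Day 4 it was 117.1 to 131.8 TPM and on Day 5 101.7 to 118.9 TPM. The part of either list in the receptor results was not tested.

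At 1 mM ADORA1 stood at 35.2, 33.1 and 33.1 TPM in PBS and at 40.4, 46.6 and 41.8 TPM in Chronic 1 h, which lay wholly above PBS. Its log2 fold change there was 0.30 with an SE of 0.14 (adjusted p = 0.293 in edgeR) and it passed without Acute 24 h replicate 1. In Acute 1 h it stood at 34.9, 33.8 and 34.6 TPM (log2 fold change 0.09). The 4 values at 1 µM lay between 0.02 and 0.22 in log2, with PBS at 9.53 to 23.3 TPM.

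ADORA2A, the receptor of indirect-pathway neurons, had a lower mean 1 h after a single 1 mM dose. It stood at 5.28, 5.80 and 4.88 TPM in PBS and at 4.00, 2.09 and 2.76 TPM in Acute 1 h, and these groups did not overlap. The log2 fold change was -0.78 with an SE of 0.33 and did not pass (adjusted p = 0.128 in edgeR). It passed when only the PBS and Acute 1 h libraries were fitted (-0.79, adjusted p = 0.0114 in edgeR) and without Acute 24 h replicate 1 (-0.79, adjusted p = 0.0177 in edgeR). It also passed with all reads in the gene counted (-0.55, adjusted p = 0.037 in edgeR), where 47.2% of all genes passed. The intron reads of ADORA2A in Acute 1 h, on the intron scale described below, gave 0.13 (adjusted p = 0.647 in edgeR). Acute 24 h replicate 1, at 11.9 TPM, lay far above the other 2 libraries of its group (4.13 and 5.55 TPM). Since few of its exon reads were unique to it, these values do not separate the receptor from the readthrough gene.

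ADORA2B, a stimulatory receptor that needs more adenosine than ADORA2A, fell 24 h after a single 1 mM dose. It stood at 4.40, 4.90 and 4.46 TPM in PBS (29, 35 and 31 exon reads), 4.09, 4.70 and 4.23 TPM in Acute 1 h and 4.06, 1.58 and 2.63 TPM in Acute 24 h (21, 13 and 23 reads). In Chronic 1 h it stood at 7.29, 6.61 and 7.39 TPM and in Chronic 24 h at 3.24, 3.16 and 2.15 TPM. Both 24 h groups lay wholly below PBS and Chronic 1 h wholly above it. The summed level of 5 astrocyte markers also lay above PBS in Chronic 1 h, at 197.5 to 214.3 TPM against 129.7 to 169.5 TPM, and its part in the ADORA1 and ADORA2B levels there was not tested. In Acute 24 h the log2 fold change was -0.90 with an SE of 0.27 (adjusted p = 0.042 in edgeR). Chronic 1 h gave 0.59 with an SE of 0.25 (adjusted p = 0.268 in edgeR) and Chronic 24 h -0.71 with an SE of 0.27 (adjusted p = 0.325 in edgeR). The Acute 24 h call was kept without Acute 24 h replicate 1, Chronic 24 h replicate 2 or Chronic 24 h replicate 3 and lost without any other of the 15 libraries, at log2 fold changes of -1.16 to -0.66. It was also lost without the filter on low counts (adjusted p = 0.0865 in edgeR) and with only the PBS and Acute 24 h libraries fitted (adjusted p = 0.233 in edgeR). With all reads in the gene counted it was -1.30 (adjusted p = 0.00116 in edgeR, with 43.8% of all genes passing).

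**Figure D2:**
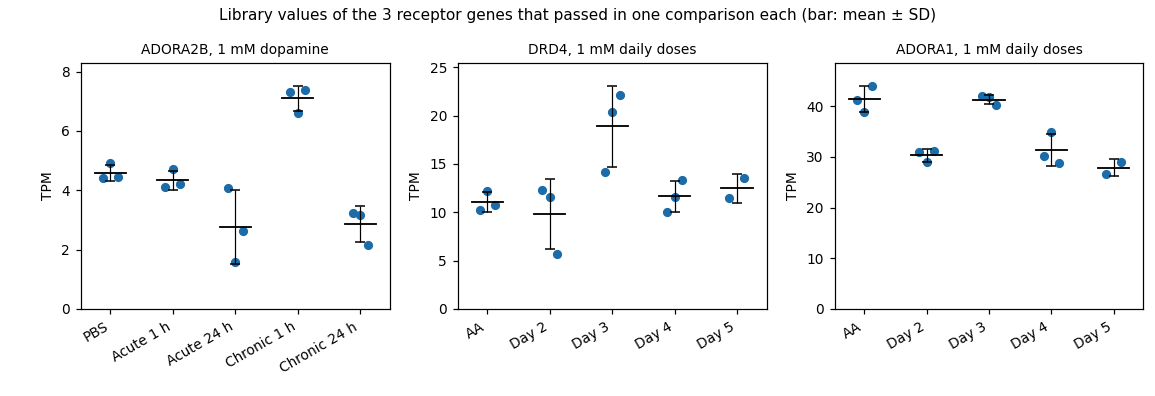
TPM of the 3 receptor genes that passed the exon test, with 1 point per library and bars for the mean ± SD (n = 3, n = 2 for Day 5): ADORA2B in the 1 mM experiment, DRD4 and ADORA1 in the time course. ADORA2B falls from 4.59 ± 0.274 TPM in PBS to 2.76 ± 1.24 TPM in Acute 24 h, DRD4 rises from 11.1 ± 1.03 TPM in AA to 18.9 ± 4.197 TPM on Day 3, and ADORA1 falls from 41.4 ± 2.599 TPM in AA to 31.3 ± 3.22 TPM on Day 4.

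The direct test of dose, the difference between the 1 mM and the 1 µM effect for each of 4 conditions, passed for 0 of 28 tests in edgeR, with 0 at an unadjusted p under 0.05, and DESeq2 called 0. The shares of all genes that passed were 2.01% for Acute 1 h, 0.663% for Acute 24 h, 0.087% for Chronic 1 h and 0.0109% for Chronic 24 h. With all reads in the gene counted, 1 test passed, DRD3 in Acute 1 h at -3.13 (adjusted p = 0.0312 in edgeR, with 27.9% of all genes passing).

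No receptor gene passed the test after either agonist. With SKF82958 0 of 8 genes passed in edgeR, against 0.0124% of all genes, and with quinpirole 0 of 8 against 0.0%, with 0 receptor genes at an unadjusted p under 0.05 in either and 0 calls by DESeq2. Both agonists were tested in 1 fit that holds quinpirole replicate 1, and the shares of all genes given are those of that fit. The receptor passes stayed at 0 with each of the 9 libraries left out in turn. The SKF82958 log2 fold changes lay between -0.28 and 0.47. DRD2, a target of quinpirole, stood at 7.97 and 8.12 TPM in quinpirole replicates 2 and 3 and at 9.10, 9.43 and 7.54 TPM in water. DRD4, also D2-like, stood at 9.37 and 9.51 TPM in the same replicates, below the 9.61, 11.85 and 11.16 TPM of water. DRD5 stood at 0.910 and 1.58 TPM there and at 1.28, 1.225 and 1.76 TPM in water. DRD1, a target of SKF82958, stood at 2.25, 1.51 and 0.718 TPM after that agonist and at 1.58, 1.93 and 1.64 TPM in water. Without quinpirole replicate 1 the quinpirole log2 fold changes, leaving out DRD4 and DRD5, were -0.02 for ADORA1, 0.47 for ADORA2A, -0.32 for ADORA2B, -0.59 for DRD1, -0.07 for DRD2 and -0.31 for DRD3. In that fit 0 genes of the 8 passed in edgeR, and its share of all genes passing is not given here. With that library kept they were -0.10 for ADORA1, 1.75 for ADORA2A (SE 1.23), -0.43 for ADORA2B, 0.64 for DRD1 (SE 1.05), -0.16 for DRD2 and -0.40 for DRD3, so that the direction of DRD1 rests on this 1 library.

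More tests of the receptor genes passed with intron reads than with exon reads at both doses, 11 against 1 at 1 mM and 2 against 0 at 1 µM. The share of all genes that passed was also higher with intron reads, at 45.2% against 16.0% in 1 mM Acute 1 h and 12.8% against 5.77% in 1 µM Acute 1 h. The files give all reads in a gene and those in its exons, and intron reads are the difference. What they come from (unspliced transcripts, unannotated exons or other sources) was not tested. Of the 8 genes, 6 had enough intron reads to test, and DRD1 and DRD5 did not. Intron reads were compared on their own TMM scale (edgeR's scaling between libraries) and, since the share of intron reads differed between groups, also scaled to the exon reads of the same library. Levels are given per 1000000 intron reads of the library (intron CPM) or per 1000000 of its exon reads (exon-scaled CPM).

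At 1 µM the intron reads of ADORA1 rose 1 h after the last dose under both regimens. The libraries held 12.2, 13.5 and 19.4 intron CPM in PBS (41, 40 and 54 reads), 59.7, 56.8 and 59.5 in Acute 1 h (107, 207 and 130 reads) and 66.5, 45.9 and 44.0 in Chronic 1 h (116, 101 and 118 reads). At 24 h they held 26.3, 21.6 and 30.5 in Acute and 9.60, 17.1 and 23.1 in Chronic. All 6 libraries at 1 h lay above all 9 others of the experiment. Its log2 fold change was 1.77 with an SE of 0.31 in Acute 1 h (adjusted p = 0.00142 in edgeR) and 1.76 with an SE of 0.31 in Chronic 1 h (adjusted p = 0.0022 in edgeR). In Acute 24 h it was 0.69 with an SE of 0.31 (adjusted p = 0.306 in edgeR) and in Chronic 24 h 0.18, and Chronic 1 h against Acute 1 h gave -0.02 (adjusted p = 0.994 in edgeR). ADORA1 was the 1 gene of 6 to pass in Acute 1 h (12.8% of all 19649 genes tested) and in Chronic 1 h (8.57%). In the other 3 comparisons 0 of 6 passed in edgeR and DESeq2 (2.85%, 0.0% and 0.0407% of all genes in Acute 24 h, Chronic 24 h and Chronic 1 h against Acute 1 h), with 1 test, ADORA1 in Acute 24 h, at an unadjusted p under 0.05.
Scaled to exon reads, ADORA1 gave 2.13 with an SE of 0.39 in Acute 1 h (adjusted p = 0.00686 in edgeR, 4.94% of all genes passing) and 1.37 with an SE of 0.39 in Chronic 1 h (adjusted p = 0.042 in edgeR, 8.34%), and in the other 3 comparisons none passed (1.1%, 0.0% and 0.412% of all genes). This scaling moved the median of all genes from 0.13 to 0.47 in Acute 1 h and from 0.22 to -0.12 in Chronic 1 h. The genes called higher and lower went from 3.76% and 9.04% to 2.68% and 2.27% in Acute 1 h, and from 2.59% and 5.98% to 0.687% and 7.65% in Chronic 1 h. On this scale the libraries held 3.72, 4.17 and 5.56 exon-scaled CPM of ADORA1 in PBS, 18.6, 25.7 and 15.1 in Acute 1 h and 12.01, 14.1 and 9.14 in Chronic 1 h. Both calls held on the intron scale without any 1 of the 15 libraries, at 1.64 to 2.06 and 1.52 to 2.00. The exon reads of ADORA1 in the same libraries gave log2 fold changes of 0.02 and 0.16. The 2 annotated genes that overlap ADORA1 gave 0 and 91 reads in all, the latter at most 7 in a library. The share of reads in introns was 22.3% to 23.6% in PBS, 20.2% to 31.2% in Acute 1 h and 15.3% to 23.6% in Chronic 1 h.

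At 1 mM the same gene depended on the scale. In intron CPM, ADORA1 stood at 23.9, 32.1 and 28.8 in PBS, 52.6, 46.5 and 42.2 in Acute 1 h, 22.4, 28.8 and 28.8 in Acute 24 h, 47.3, 44.1 and 48.7 in Chronic 1 h and 28.0, 29.2 and 32.04 in Chronic 24 h. Both 1 h groups lay above PBS. In exon-scaled CPM, PBS stood at 6.39, 8.95 and 6.98, Acute 1 h at 7.34, 7.004 and 6.43 and Chronic 1 h at 12.5, 11.5 and 12.6. On this scale Acute 1 h overlapped with PBS and Chronic 1 h lay above it.
The log2 fold change of ADORA1 in Acute 1 h was 1.05 with an SE of 0.17 (adjusted p = 0.000369 in edgeR) on the intron scale and -0.07 (adjusted p = 0.767 in edgeR) when scaled to exon reads. Chronic 1 h gave 0.68 with an SE of 0.17 (adjusted p = 0.0415 in edgeR) and 0.66 (adjusted p = 0.107 in edgeR). The Chronic 1 h call was lost without any PBS library, any Chronic 1 h library or Chronic 24 h replicate 1. Whether the intron change differed between doses, or between 1 h and 24 h, was not tested.

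**Figure D3:**
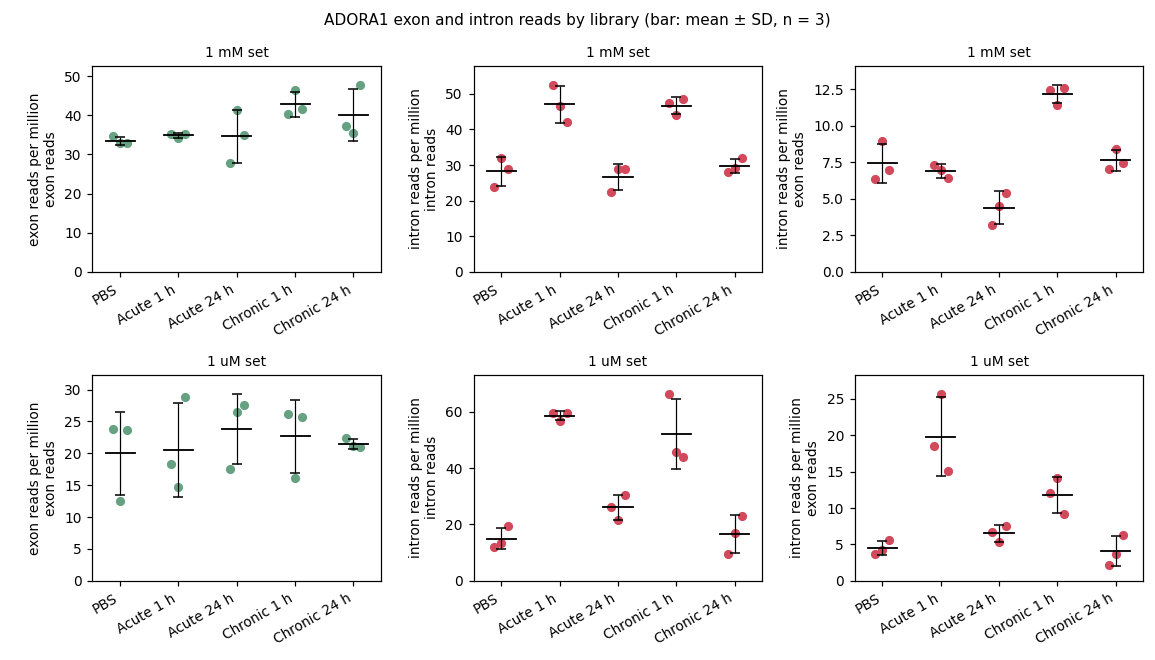
ADORA1 by library in the 1 mM experiment (top) and the 1 µM experiment (bottom), as exon CPM (exon reads per 1000000 exon reads), intron CPM and exon-scaled intron CPM, with bars for the mean ± SD (n = 3). At 1 µM both 1 h groups stand above PBS on either intron scale (15.1 to 25.7 and 9.14 to 14.1 against 3.72 to 5.56 exon-scaled CPM), and at 1 mM Acute 1 h stands above PBS on the first intron scale and level with it on the second.

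The reason for giving both scales lies in the 1 mM Acute libraries as a whole. Their share of reads in introns was 12.3% to 15.9% over 6 libraries, against 18.9% to 22.4% over the 9 PBS and Chronic libraries. Scaling to exon reads moved the median log2 fold change of all genes from 0.03 to -1.07 in Acute 1 h, from 0.08 to -0.87 in Acute 24 h and from -0.09 to 1.00 in Chronic 1 h against Acute 1 h. The genes called higher and lower in Acute 1 h went from 23.1% and 22.1% to 1.82% and 68.3%, those in Acute 24 h from 19.4% and 18.6% to 0.595% and 62.7%, and those in Chronic 1 h against Acute 1 h from 16.1% and 16.8% to 71.3% and 0.569%. Changes on the intron scale are thus relative to this overall shift. Culture age may differ between the PBS and Acute libraries and cannot be told apart from treatment here. Besides ADORA1 in Acute 1 h, the direction turned for DRD4 in Acute 1 h (1.01, adjusted p = 0.00238, to -0.12), ADORA2A in Acute 24 h (0.75, adjusted p = 0.0113, to -0.21) and DRD4 in Chronic 1 h against Acute 1 h (-0.75, adjusted p = 0.0191, to 0.36), all in edgeR.

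After a single 1 mM dose the intron reads of DRD2 (at 1 h), DRD3 (at 1 h and 24 h) and ADORA2B (at 24 h) fell on both scales. The exon scaling shifts the genes of a comparison together, with the median of all genes going from 0.03 to -1.07 in Acute 1 h. A fall on the exon-scaled values therefore adds no separate evidence to a fall on the intron scale. The same holds for the rises in Chronic 1 h against Acute 1 h. On the intron scale 4 of 6 genes passed in Acute 1 h (45.2% of all 23718 genes), 3 of 6 in Acute 24 h (38.0%), 1 of 6 in Chronic 1 h (2.54%) and 3 of 6 in Chronic 1 h against Acute 1 h (32.9%). In Chronic 24 h 0 of 6 passed in edgeR (0.118% of all genes), with 0 at an unadjusted p under 0.05 and 0 calls by DESeq2. Scaled to exon reads, 4 of 6 passed in Acute 1 h (70.1% of all genes), 4 in Acute 24 h (63.3%), 0 in Chronic 1 h (1.45%, 1 receptor gene at an unadjusted p under 0.05) and 0 in Chronic 24 h (0.0759%). Chronic 1 h against Acute 1 h then had 5 of 6 (71.8%). The receptors' shares in the Acute comparisons stand beside large shares of all genes.

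DRD3 had 74, 65 and 77 intron reads in PBS, 5, 15 and 19 in Acute 1 h, 15, 18 and 45 in Acute 24 h, 72, 70 and 56 in Chronic 1 h and 77, 69 and 63 in Chronic 24 h. All 6 Acute libraries lay below all 9 others. In intron CPM the levels were 17.2, 13.5 and 18.8 in PBS and 2.19, 7.26 and 8.53 in Acute 1 h. The log2 fold change in Acute 1 h was -1.17 with an SE of 0.33 (adjusted p = 0.00876 in edgeR) and, scaled to exon reads, -2.24 (adjusted p = 9.3e-05 in edgeR). In Acute 24 h it was -0.81 with an SE of 0.30 (adjusted p = 0.0423 in edgeR) and -1.70 (adjusted p = 0.000702 in edgeR). Chronic 1 h lay above Acute 1 h by 1.01 with an SE of 0.33 (adjusted p = 0.0272 in edgeR) and 2.07 (adjusted p = 0.000248 in edgeR). On the intron scale the Acute 1 h call held without any 1 of the 15 libraries, the Acute 24 h call was kept only without Acute 1 h replicates 1 or 3 or Acute 24 h replicate 3, and the last call was lost without Acute 1 h replicate 1 or Chronic 1 h replicates 1 or 2. At 1 µM the intron reads of DRD3 scattered from 0 to 78 within a group (18, 78 and 0 in Acute 1 h) and did not pass.

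DRD2 had 47, 63 and 40 intron reads in PBS, 11, 11 and 9 in Acute 1 h, 30, 20 and 36 in Acute 24 h, 58, 50 and 59 in Chronic 1 h and 56, 66 and 42 in Chronic 24 h. The Acute 1 h libraries lay below all others, and the exon reads of the same gene gave a log2 fold change of 0.24. The intron log2 fold change in Acute 1 h was -0.94 with an SE of 0.31 (adjusted p = 0.0208 in edgeR) and -2.05 scaled to exon reads (adjusted p = 5.2e-05 in edgeR). It was lost on the intron scale without PBS replicate 2 or Acute 1 h replicate 3. Chronic 1 h lay above Acute 1 h by 1.08 (adjusted p = 0.0143 in edgeR) and 2.17 (adjusted p = 6.1e-05 in edgeR), and this call held without any 1 of the 15 libraries.

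ADORA2B had 60, 65 and 56 intron reads in PBS, 20, 21 and 26 in Acute 1 h, 12, 13 and 22 in Acute 24 h, 54, 39 and 74 in Chronic 1 h and 42, 51 and 50 in Chronic 24 h. Both Acute groups lay below the other 3 in these reads. In intron CPM Acute 24 h stayed below them, at 4.11 to 5.72, while Acute 1 h (8.76 to 11.7) overlapped with Chronic 1 h (9.09 to 16.7) and Chronic 24 h (9.64 to 12.7). In Acute 24 h, where its exon reads also fell, the intron log2 fold change was -1.22 with an SE of 0.26 (adjusted p = 0.0037 in edgeR) and -2.14 scaled to exon reads (adjusted p = 6.7e-05 in edgeR), and the call held without any 1 of the 15 libraries. In Acute 1 h it was -0.12 (adjusted p = 0.70 in edgeR) on the intron scale and -1.22 (adjusted p = 0.000989 in edgeR) scaled to exon reads.
Some astrocyte and neuron markers fell in the 1 mM Acute comparisons with exon reads. Of all genes, 16.0% passed there in Acute 1 h and 15.5% in Acute 24 h. Of 5 astrocyte markers, 2 fell in Acute 1 h and 2 in Acute 24 h, with a summed level of 129.7 to 169.5 TPM in PBS and 96.1 to 101.6 TPM in Acute 1 h. Of 6 neuron markers, 2 fell in Acute 1 h and 3 in Acute 24 h, with sums of 3137 to 3571 TPM in PBS, 2858 to 3160 TPM in Acute 1 h and 1634 to 2904 TPM in Acute 24 h. The sum of 5 direct-pathway markers was 21.2 to 24.7 TPM in PBS. It was higher in Acute 1 h (33.2 to 37.6 TPM) and Acute 24 h (28.8 to 34.6 TPM). That of 5 indirect-pathway markers was 35.4 to 49.4, 58.3 to 64.1 and 55.3 to 64.9 TPM in these 3 groups. That of 8 MSN markers was 126.5 to 138.9, 102.8 to 113.3 and 101.0 to 174.9 TPM. The part of these lists in the receptor results was not tested. In the time course 0 of 6 genes passed on either intron scale in edgeR and 0 in DESeq2, with 4 tests over the 4 days at an unadjusted p under 0.05 on the intron scale in edgeR. Of all genes, 3.52%, 2.53%, 0.789% and 0.789% passed on the intron scale from Day 2 to Day 5, and 2.97%, 0.687%, 0.338% and 0.0805% when scaled to exon reads.

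**Figure D4:**
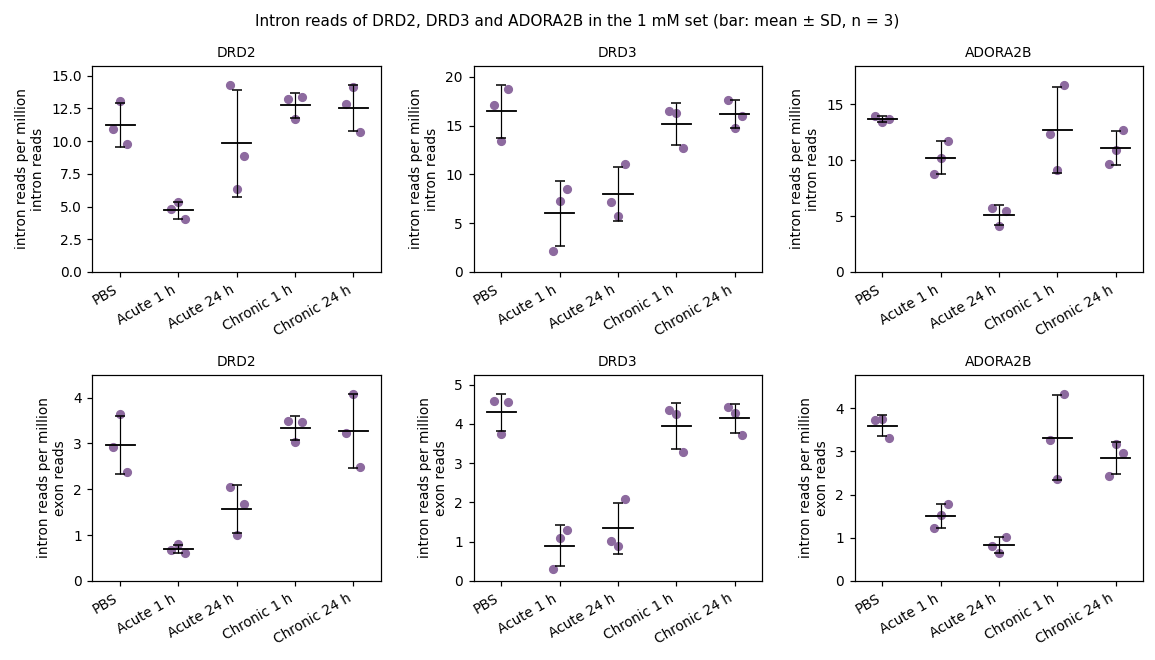
Intron reads of DRD2, DRD3 and ADORA2B in each library of the 1 mM experiment, in intron CPM (top) and exon-scaled CPM (bottom), with bars for the mean ± SD (n = 3). DRD3 lies at 13.5 to 18.8 intron CPM in PBS and at 2.19 to 8.53 in Acute 1 h, ADORA2B at 13.5 to 13.9 in PBS and at 4.11 to 5.72 in Acute 24 h, and the Chronic 1 h points lie near those of PBS.

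Downstream of the receptors, 16 G protein and adenylyl cyclase genes were followed. In 1 mM Acute 1 h 2 of them fell, where 16.0% of all genes passed: ADCY1, a calcium-stimulated cyclase, by 0.36 in log2, and GNAO1, the inhibitory Go subunit that D2-like receptors use, by 0.49. In Acute 24 h 4 fell, where 15.5% of all genes passed, namely ADCY1, ADCY5 (the main striatal cyclase), GNAI1 and GNAO1, at log2 fold changes of -0.53, -0.40, -0.53 and -0.49. In 1 µM Acute 1 h GNAO1 fell (-0.47, adjusted p = 0.0474 in edgeR). The other passes of the list were GNAI2, lower in Chronic 1 h than in Acute 1 h at 1 mM, and ADCY1, higher on Day 4 (0.38, adjusted p = 0.0218 in edgeR). The median log2 fold change of the list was 0.00 in 1 mM Acute 1 h and -0.17 in Acute 24 h, against 0.01 and 0.02 over all genes.

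Among 14 regulators of receptor signalling, RGS4 and RGS8 rose after a single 1 mM dose and on each day of the time course. RGS4, which speeds the return of inhibitory G proteins to rest, had 17.1 ± 1.57 TPM in 1 mM PBS, 29.6 ± 0.710 TPM in Acute 1 h, 28.4 ± 7.36 TPM in Acute 24 h and 13.3 ± 1.46 TPM in Chronic 1 h (SD, n = 3). The Acute 1 h list had 3 genes up (RGS4 by 0.86, RGS8 by 0.98 and RGS2 by 0.53 in log2) and 3 down (RGS14, GRK5 and CALY, a D1 receptor-interacting protein gene, at -1.26), where 16.0% of all genes passed. Acute 24 h had RGS4 and RGS8 up and CALY down (15.5% of all genes). Chronic 1 h lay below Acute 1 h for RGS4 (-1.26), RGS8 (-1.001) and RGS2 (-0.75).
In the time course 3 of the 14 genes rose on each day, where 3.88%, 7.37%, 4.38% and 1.63% of all genes passed from Day 2 to Day 5. RGS4 led on all 4 days, at log2 fold changes of 0.90, 1.39, 1.07 and 0.98 from Day 2 to Day 5. Of 8 genes of adenosine supply and removal 1 passed in each of 3 comparisons: DPP4 fell in 1 mM Acute 24 h (-1.36, adjusted p = 0.0448 in edgeR), ENTPD1 fell on Day 2 (-0.47, adjusted p = 0.0279 in edgeR), and ADA, adenosine deaminase, rose on Day 3 (0.76, adjusted p = 0.027 in edgeR).

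Genes whose level followed that of a receptor were found by Pearson correlation of log2(TPM + 0.5), centred within each experiment, as a description over 52 libraries without quinpirole replicate 1, which was left out after its values were seen. The libraries share depth and composition, which also move such values. Nearest to ADORA1 were KLHL25 (0.87), ORAI2 (0.87) and ANKRD52 (0.86), and nearest to DRD4 XXYLT1 (0.80), COLGALT1 (0.80) and SLC45A3 (0.79). Nearest to ADORA2B were NAPRT (0.81), PRADC1 (0.81) and PCCB (0.80), and nearest to DRD1 PIGA (0.78), MTM1 (0.76) and CYB5R1 (0.75). The nearest genes to DRD2, DRD3 and ADORA2A were less close: ZDHHC14 at 0.54, NTSR1 at 0.62 and SIRT3 at 0.65. Over all 53 libraries, as first planned, the nearest genes were others, such as RER1 for ADORA1 at 0.98, so that 1 library sets them.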

How the data were processed

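RNA-seq was available for 53 libraries of H9-derived hMSN-like cells. Day 5 replicate 1 is not analysed here. Per the labels, libraries were prepared by standard Illumina protocols, and the genome build was hg38 (GRCh38). The authors mapped and counted reads in CLC Genomics Workbench, and strand and quality settings are not given in the sources used here. The deposited tables hold counts per gene (total exon reads, total gene reads, uniquely mapped reads) and TPM, the authors' length-corrected level per library, which was printed but not tested.

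The 8 receptor genes and the gene lists were chosen with earlier results of these data known. Exon counts were tested with edgeR 4.0.16 (glmQLFit, glmQLFTest) in R 4.3.3, after TMM scaling and filterByExpr (minimum count 10, minimum total 15), in 1 fit per experiment with Benjamini-Hochberg adjustment within each comparison at 0.05. SEs were taken as |log2 fold change| over sqrt(F). The thresholds of the study for acute and chronic sets also ask for an absolute log2 fold change of 1 and a mean of 1 TPM. Alternatives were total or unique gene reads, DESeq2 1.42.0, no filter, a replicate block, only the groups compared, and leaving out each library. The intron tests and pairs of alternatives were added after seeing the data. On simulated counts for 1 mM Acute 1 h (17419 genes), edgeR recovered 54 of 100 genes changed by 1 in log2 and 99 of 100 changed by 2, with 3 false calls. The changed genes were drawn only from genes above a minimum mean read count. All genes had the same spread and no library stood apart. These rates therefore do not give the power for genes as low as DRD3 and DRD5. Named genes were the 8 receptors, list genes that passed, genes sharing reads, and for each receptor of at least 1 mean TPM the 3 genes of highest correlation. Depth is the exon reads per library, and low counts limit DRD1, ADORA2B, DRD3 and DRD5 most. Figures used matplotlib 3.10.9. Comparison columns of the authors were not used. A check of whether replicate numbers pair libraries is given with the alternatives.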

Additional observations from a re-analysis of the deposited data

How the results depend on the processing

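The number of receptor tests (1 gene in 1 comparison) that passed at 1 mM was 1. It became 7 with total gene reads, 6 with uniquely mapped gene reads and 2 with DESeq2. It was 0 without the low-count filter, 5 with only the groups compared in a fit and 0 under the thresholds of the study. With total gene reads 47.2% of all genes passed in Acute 1 h, 43.8% in Acute 24 h and 40.1% in Chronic 1 h against Acute 1 h. Leaving out 1 library gave 0 to 5, with 5 without Acute 24 h replicate 1 (ADORA2B in Acute 24 h, ADORA1 in Chronic 1 h, ADORA2A in Acute 1 h, and ADORA2A and ADORA2B in Chronic 1 h against Acute 1 h). Without that library the number was 13 with total gene reads, 4 with DESeq2 and 3 with the replicate block. At 1 µM it was 0 and became 1 with DESeq2, also without PBS replicate 2. In the time course it was 2 and became 0 with total or uniquely mapped gene reads, with the replicate block and under the thresholds of the study, and 4 with DESeq2 or without the filter. Leaving out 1 library gave 0 to 4, with 4 without Day 5 replicate 2. The dose differences went from 0 to 1 with total or uniquely mapped gene reads. The control sets went from 13 to 10 without AA replicate 3 and to 22 without 1 µM PBS replicate 2. With intron reads at 1 mM, leaving out 1 library changed 11 to 7 to 11, the lowest without Chronic 1 h replicate 1. In the time course 0 became 2 without the filter and 1 with only the groups compared, and 0 to 3 when 1 library was left out. The agonists stayed at 0 throughout. Where not shown by the values, the cause was not tested.

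Directions turned as follows. In Chronic 1 h against Acute 1 h at 1 mM, ADORA1 was -0.015 with total gene reads (-0.018 also without Acute 24 h replicate 1) and ADORA2A -0.148 with uniquely mapped reads. DRD3 there ran from -0.413 (without Acute 1 h replicate 2) to 0.668 when 1 library was left out. The dose difference of DRD3 in Acute 1 h was -3.131 with total and -3.218 with uniquely mapped gene reads, and ran from -0.441 to 2.308 when 1 library was left out. For 1 mM PBS against AA, DRD3 was 1.478 and 1.481 and ADORA2B 0.719 and 0.723 with total and uniquely mapped gene reads, and ADORA2B ran from -0.372 to 0.173 (without AA replicate 1) when 1 library was left out. DRD3 in 1 mM PBS against 1 µM PBS ran from -0.076 (without 1 µM PBS replicate 3) to 0.822. Intron reads scaled to exon reads turned ADORA1 (-0.069) and DRD4 (-0.123) in Acute 1 h, ADORA2A in Acute 24 h (-0.212) and DRD4 in Chronic 1 h against Acute 1 h (0.361). Low exon counts limit DRD3, DRD5, DRD1 and ADORA2B.

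The correlation of deviations exceeded 0.1 in 6 of 30 same-number pairs at 1 mM, 6 of 26 in the time course and 2 of 9 with the agonists. Replicate numbers thus showed no pairing there. At 1 µM it exceeded 0.1 in 16 of 30, running from -0.472 to 0.64, so some same-number libraries at 1 µM moved together. With the replicate number as a block, the adjusted p in edgeR was 0.0609 for ADORA2B in 1 mM Acute 24 h (-0.91), 0.0486 for DRD2 there (0.64), 0.0558 for DRD4 on Day 3 (0.87) and 0.0558 for ADORA1 on Day 4 (-0.38). It was 0.0522 for the introns of DRD3 in 1 mM Acute 24 h (-0.82) and 0.0587 for those of ADORA1 in Chronic 1 h (0.69). Among the control sets it was 0.0688 for DRD2 between 1 µM PBS and AA (-0.71), and ADORA2A passed for 1 mM PBS against 1 µM PBS (1.52, 0.042) and against water (1.59, 0.026). No other call changed with the block.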

Other observations

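Quinpirole replicate 1, which stood apart in composition, gave 5 exon reads of DRD1, 2 of DRD5, 8 of ADORA2A and 0 of the other 5 receptor genes. With so few exon reads in the library its TPM values were high, 39.96 for DRD1, 27.12 for DRD5 and 61.51 for ADORA2A. Its intron reads of the same genes numbered 257 for DRD3, 200 for ADORA1, 104 for ADORA2B, 51 for DRD2, 3 for ADORA2A and 0 for DRD4.

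DRD5P2, a pseudogene of DRD5, gave 157 exon reads over the 53 libraries, all counted as unique, and DRD5P1 gave 0. ADORA3, the adenosine receptor outside the 8 genes, had a highest group mean of 0.353 TPM (1 µM Acute 1 h) apart from the quinpirole group.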
